A study of Mus musculus with 6 samples.

Results

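The interferon response genes described here are 54 of the 19790 genes with a read count in an RNA-seq study of fat from mice. The tissue was gonadal white adipose tissue (gWAT), a visceral depot that lies against the reproductive tract. They were chosen by symbol: the Ifit, Oas, Gbp, Irf and Stat families with a number in the symbol, *Oasl1* and *Oasl2*, *Mx1*, *Mx2*, *Irgm1*, *Irgm2*, and *Isg15*, *Rsad2*, *Usp18*, *Ifi44*, *Ifih1* and *Bst2*. The rule used no measured value, but it was set with earlier results of these data known. The members were sorted by role into 12 sensors of foreign RNA, 16 transcription factors, 13 effectors of the type I response and 13 GTPases of the interferon-gamma response.

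Both groups were C57BL/6 mice labelled WT (wild type), male by the study's methods, with no drug. Of these, 3 received a normal chow diet (NCD) and 3 a high-fat diet (HFD), each for 8 weeks. The methods use WT for mice with a floxed *Tmem86a* and no Cre, and also name purchased C57BL/6 mice. They do not say which were sequenced. The sample labels put the start of the diets at an age of 6 weeks and the methods at 8 weeks. The comparison asks which interferon response genes differ in gWAT after prolonged HFD feeding, and 1 tissue depot in 1 sex at 1 time limits the answer.

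Type I interferons are secreted by cells that detect viral or displaced nucleic acid. They act through a receptor that, with the kinases JAK1 and TYK2, assembles a complex of STAT factors and IRF9. This complex binds the interferon-stimulated response element (ISRE) in the promoters of antiviral genes. Interferon-gamma acts through paired STAT factors that bind the gamma-activated site (GAS) and raises IRF1 and the guanylate-binding proteins. RNA of whole adipose tissue pools that of adipocytes, endothelial cells and resident immune cells, and obesity is known for an influx of macrophages.

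Library depth was between 49575113 and 66360046 counts, so the spread between mice and not counting error limits the precision for all but the rarest members. NCD replicate 1 stood apart. In it 58.6% of the counts fell on 11 genes of seminal vesicle secretion, against 11.2% and 2.3% in NCD replicates 2 and 3 and almost none on HFD, and scaling by TMM (edgeR's trimmed mean of M-values) gave it a factor of 0.496 where the other mice had 1.02 to 1.27. The counts of calls and the fold changes of the main members are therefore given with and without this library. The adipocyte markers were well expressed in all mice, with 1902, 7492 and 9872 TMM-scaled CPM (counts relative to the scaled library total) summed over 6 genes on NCD and 7606, 5821 and 4086 on HFD. Values of a gene or list are given throughout in the order of replicates 1, 2 and 3 of each diet. In bulk tissue, fewer cells of a type and less RNA per cell cannot be told apart.

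The promoters of the members carried the motifs of this pathway more often than promoters at large, and those of 7 genes described below are shown so that the motifs can be seen in place. The ISRE was searched as GAAANNGAAA and the GAS as TTCNNNGAA, on either strand, from 250 bases before to 50 bases after the start, and an entry with both can have them overlap. RefSeq sequences (GRCm38.p6) were found for 39 of the 54 members. Of these, 23 (59%) held an ISRE, against 3.99% of the 27025 genes with an entry and 3.44% of all 32851 promoters of that length, and 9 (23.1%) held a GAS, against 9.55% of genes and 8.3% of promoters. All 7 GTPases with an entry held an ISRE, as did 8 of 10 effectors, 5 of 8 sensors and 3 of 14 transcription factors. The stretches below run 5′ to 3′ toward the gene, end before its start, and have the ISRE in capitals for *Isg15*, *Ifit1*, *Oas3* and *Gbp2*, the GAS in capitals for *Irf8* and *Irf1*, and both for *Bst2*. TTTC on the printed strand is GAAA on the other.
*Isg15*, chr4:156200855-156200916, minus strand: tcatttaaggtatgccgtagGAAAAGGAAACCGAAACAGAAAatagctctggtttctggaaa
*Ifit1*, chr19:34640765-34640833, plus strand: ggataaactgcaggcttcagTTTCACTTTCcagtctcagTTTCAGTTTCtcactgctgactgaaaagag
*Oas3*, chr5:120777705-120777754, minus strand: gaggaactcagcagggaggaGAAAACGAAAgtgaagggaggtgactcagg
*Bst2*, chr8:71537567-71537628, minus strand: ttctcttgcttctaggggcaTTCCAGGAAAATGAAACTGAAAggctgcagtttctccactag
*Gbp2*, chr3:142620584-142620633, plus strand: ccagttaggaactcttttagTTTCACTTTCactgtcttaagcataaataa
*Irf8*, chr8:120736167-120736233, plus strand: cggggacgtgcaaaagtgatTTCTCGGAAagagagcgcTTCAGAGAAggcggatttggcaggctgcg
*Irf1*, chr11:53769904-53769952, plus strand: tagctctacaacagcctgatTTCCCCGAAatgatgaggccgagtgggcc

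*Isg15* held 3 overlapping ISRE matches, the nearest of them 66 bases before the start. The *Ifit1* stretch also lies before *Ifit1bl2*, which is transcribed the other way, so the pair share their matches. No ISRE was found in the window of *Irf5*, *Irf8*, *Stat6* or *Oasl1*, which says only that these letters are not there. A match is a description of sequence and not a binding site.

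Across all 6 mice, 4 interferon response genes rose on HFD at an adjusted p under 0.05 (edgeR's quasi-likelihood test, p-values adjusted by the Benjamini-Hochberg procedure over the 15241 genes tested): the transcription factors *Irf5*, *Irf8* and *Stat6* and the sensor *Oasl1*. They are 7.84% of the 51 members tested, beside 5.58% of all genes tested that were higher, so the number of calls alone does not set the members apart. None fell (1.9% of all genes were lower). At an unadjusted p under 0.05 there were 21 members higher and 2 lower, beside 2436 higher and 2088 lower of the 15241 genes tested. Of the members, DESeq2 called 17 higher and 1 lower, and limma-voom 3 and 0. Of all genes, DESeq2 called 3904 (55.1% of them higher) and limma-voom 974 (76.3% of them higher). The log2 fold change was positive for 45 of the 51, with a median of 0.754 against -0.0781 over all genes. Every HFD mouse lay above every NCD mouse for 17 members (33.3%, beside 20.5% of all genes) and below for 3 (5.88%, beside 18.7%). An exact two-sided permutation test of 3 mice against 3 cannot give a p below 0.1, so this separation has no test of its own. *Oas1d*, *Oas1e* and *Oas1f* had 0 to 4 counts a library and were not tested.

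Without NCD replicate 1, 9 members rose (17.6%, beside 10.7% of all genes tested) and 1 fell (1.96%, beside 10.1%). The rises were *Irf5*, *Irf8*, *Stat6* and *Oasl1* again, with *Irf1*, *Irf2*, *Gbp2*, *Gbp4* and *Gbp9*. DESeq2 called 16 higher in these 5 mice and limma-voom 9, where of all genes they called 5393 (52% of them higher) and 2856 (49.2% of them higher). The median log2 fold change of the members was 0.653 against 0.0164 over all genes, and 41 of the 51 were positive.

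**Figure D1:**
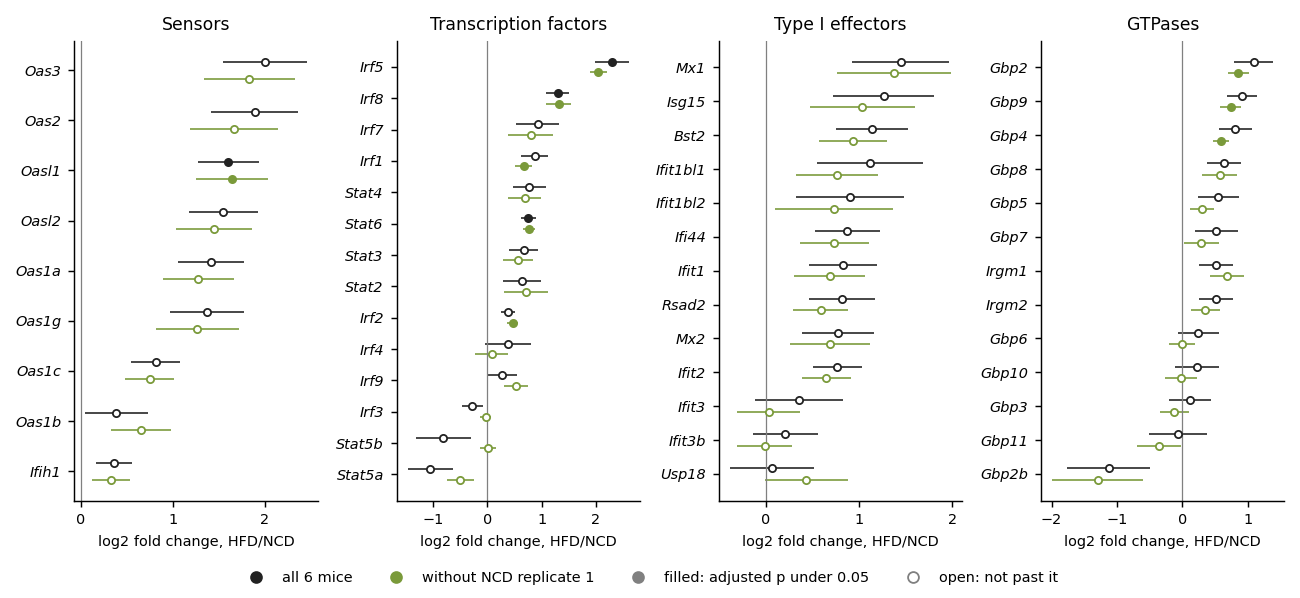
Log2 fold change (HFD over NCD, edgeR) with its standard error for 49 of the 51 members tested, by role, in all 6 mice (black) and without NCD replicate 1 (green), with filled points past an adjusted p of 0.05. All 9 sensors and 13 effectors lie to the right of 0 in all 6 mice, and of the transcription factors Irf5 lies farthest to the right at 2.30.

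Among the transcription factors, *Irf5* changed most of the called genes. IRF5 acts downstream of Toll-like receptors and drives inflammatory gene expression in macrophages. Its level was 12.7, 28.0 and 22.8 TMM-scaled CPM on NCD and 99.4, 96.0 and 117 on HFD. The lowest HFD mouse was thus above the highest NCD mouse by more than the whole NCD range. The mean rose from 21.2 ± 7.80 to 104 ± 11.4 (SD, n = 3 mice each), a log2 fold change of 2.30 (SE 0.312, adjusted p = 0.0219 from edgeR). Without NCD replicate 1 it was 2.05 (SE 0.166, adjusted p = 0.00544). Of the exon bases of *Irf5*, 14.1% are also covered by *Tnpo3* on the opposite strand, and the sources used here do not give the strand setting of the counting.

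IRF8 directs the development of monocytes and dendritic cells. *Irf8* was measured at 29.4, 33.7 and 25.1 TMM-scaled CPM on NCD and at 63.5, 63.0 and 90.1 on HFD, with means of 29.4 ± 4.27 and 72.2 ± 15.5 (SD, n = 3 mice each). The diets did not overlap, and HFD replicate 3 was the highest. The log2 fold change was 1.3 (SE 0.208, adjusted p = 0.0257 from edgeR) and 1.31 (adjusted p = 0.0175) without NCD replicate 1.

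STAT6 carries the signal of interleukin-4 and interleukin-13 rather than that of an interferon, and is listed here by its family name. *Stat6* was at 109, 110 and 109 TMM-scaled CPM on NCD and at 194, 184 and 175 on HFD, with means of 109 ± 0.238 and 185 ± 9.23 (SD, n = 3 mice each). The NCD mice were nearly equal, and all HFD mice were above them. The log2 fold change was 0.75 (SE 0.137, adjusted p = 0.0339 from edgeR) and 0.77 (adjusted p = 0.0126) without NCD replicate 1. Scaled by total counts alone, all 6 mice gave an adjusted p of 0.0987.

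These 3 rises stood beside higher macrophage markers. Summed over *Adgre1*, *Cd68*, *Csf1r*, *Itgam*, *Itgax*, *Mrc1*, *Lyz2*, *Mertk* and *Trem2*, the macrophage list was at 409, 921 and 863 TMM-scaled CPM on NCD and 3746, 2237 and 2775 on HFD. By edgeR 4 of its 9 genes rose in all 6 mice (beside 5.58% of all genes tested) and 8 without NCD replicate 1 (beside 10.7%). HFD replicate 1 was the highest in this sum. The part of macrophage RNA in the rise of *Irf5*, *Irf8* and *Stat6* was not tested.

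*Irf1* and *Irf2* passed edgeR's test without NCD replicate 1 but not in all mice, where DESeq2 gave an adjusted p of 0.0177 for *Irf1* and 0.0195 for *Irf2*. IRF1 is an activator of interferon-gamma target genes and IRF2 its antagonist at many of the same sites. *Irf1* was at 29.9, 52.6 and 50 TMM-scaled CPM on NCD and 67.8, 85.2 and 89.3 on HFD. Its log2 fold change was 0.87 (adjusted p = 0.086 from edgeR) in all mice and 0.67 (adjusted p = 0.0363) without NCD replicate 1. *Irf2* was at 48.7, 41.8 and 42.1 on NCD and 54.3, 59.5 and 58.6 on HFD, with 0.38 (adjusted p = 0.123) and 0.47 (adjusted p = 0.0324). For both genes every HFD mouse was above every NCD mouse. Of the 9 rises without NCD replicate 1, that of *Irf2* was the smallest.

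*Stat2* and *Irf9*, which encode factors of the type I complex, did not pass edgeR's test in all 6 mice or without NCD replicate 1. *Stat2* was at 106, 110 and 79.9 TMM-scaled CPM on NCD and 82.3, 172 and 205 on HFD, so that HFD replicate 1 lay among the NCD mice (log2 fold change 0.64, adjusted p = 0.278 from edgeR). *Irf9* was at 83.9, 60.8 and 46.3 on NCD and 58.3, 84.4 and 87.0 on HFD, again with overlap (0.27, adjusted p = 0.541). The log2 fold change without NCD replicate 1 was 0.71 for *Stat2* (adjusted p = 0.257) and 0.53 for *Irf9* (adjusted p = 0.15).

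*Irf7*, the factor that amplifies type I interferon production, had the highest level per length of the transcription factors. On the scale of TMM-scaled FPKM (fragments per kilobase of exon and scaled library total, with exon lengths from GENCODE vM21) it averaged 82.0 on NCD and 156 on HFD. In TMM-scaled CPM it was at 154, 286 and 149 on NCD and 230, 480 and 410 on HFD. NCD replicate 2 lay above HFD replicate 1, and the log2 fold change of 0.93 did not pass the test (SE 0.392, adjusted p = 0.177 from edgeR), nor did that of 0.80 without NCD replicate 1 (adjusted p = 0.219).

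*Stat5a* and *Stat5b*, which carry growth hormone and cytokine signals, and *Irf3*, the factor first activated by nucleic acid sensors, were highest in NCD replicate 1, the library with the largest seminal vesicle share, whose part in these values was not tested. *Stat5b* was at 249, 84.7 and 67.2 TMM-scaled CPM on NCD and 72.6, 73.0 and 82.1 on HFD. Its log2 fold change of -0.81 (adjusted p = 0.323 from edgeR) became 0.01 (adjusted p = 0.952) without that library. *Stat5a* was at 179, 78.7 and 73.3 on NCD and 37.4, 54.3 and 67.3 on HFD, with -1.06 (adjusted p = 0.156) and -0.50 (adjusted p = 0.202) without it. *Irf3* was at 80.4, 53.3 and 52.8 on NCD and 51.2 to 51.4 on HFD, with -0.28 (adjusted p = 0.387) and -0.04 (adjusted p = 0.815).

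The sensors had the highest median log2 fold change of the roles, 1.41, against 0.828 for the effectors and 0.508 for both the transcription factors and the GTPases. The Oas family is named for synthetases that, on binding viral RNA, make the oligoadenylates that activate RNase L. All 8 Oas genes tested were positive with a median log2 fold change of 1.48. In 7 of them every HFD mouse was above every NCD mouse (beside 20.5% of all genes tested), while *Oasl1* alone passed the adjusted threshold by edgeR. At an unadjusted p under 0.05 these same 7 were higher, beside 2436 of all 15241 genes tested. DESeq2 called 7 of the 8 and limma-voom 0. With NCD replicate 1 left out, edgeR called 1 (beside 10.7% of all genes tested that were higher), DESeq2 7 and limma-voom 1.

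*Oasl1*, a relative of the synthetases that represses translation of *Irf7* mRNA, was at 14.6, 18.5 and 9.64 TMM-scaled CPM on NCD and 28.9, 46.3 and 54.6 on HFD, with means of 14.2 ± 4.43 and 43.3 ± 13.1 (SD, n = 3 mice each). HFD replicate 1 was the lowest of its diet and still above all NCD mice. The log2 fold change was 1.6 (SE 0.335, adjusted p = 0.0447 from edgeR) and 1.64 (adjusted p = 0.0377) without NCD replicate 1. In all mice the call was lost with limma-voom (adjusted p = 0.0509) and with no filter on low counts (adjusted p = 0.0521), and with DESeq2 the adjusted p was 0.000248.

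*Oas3*, the largest synthetase, was at 11.3, 22.4 and 13.1 TMM-scaled CPM on NCD and 31.0, 70.9 and 85.4 on HFD. Its log2 fold change of 1.998 (SE 0.453, adjusted p = 0.0521 from edgeR) narrowly missed the threshold. *Oas2* was at 35.0, 69.5 and 60.6 on NCD and 93.3, 242 and 276 on HFD, with a log2 fold change of 1.89 (SE 0.473, adjusted p = 0.0638). These were 1.83 (adjusted p = 0.0514) and 1.66 (adjusted p = 0.061) without NCD replicate 1, and DESeq2 called both in all mice. In both genes HFD replicates 2 and 3 were more than 2 times the level of HFD replicate 1.

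*Oasl2* had the highest level per length of the sensors, a mean of 25.0 TMM-scaled FPKM on NCD and 73.2 on HFD. In TMM-scaled CPM it was at 64.6, 103 and 66.7 on NCD and 128, 264 and 293 on HFD (log2 fold change 1.55, adjusted p = 0.0586 from edgeR). *Oas1a* was at 30.9, 57.5 and 31.2 on NCD and 68.6, 118 and 133 on HFD (1.41, adjusted p = 0.0661). *Oas1g* followed it (1.37, adjusted p = 0.0863), but 40.9% of the 100-base exon windows of *Oas1a* also occur in *Oas1g*, so reads could pass between them. Leaving out NCD replicate 1 gave log2 fold changes of 1.45 for *Oasl2* (adjusted p = 0.0592), 1.28 for *Oas1a* (adjusted p = 0.0681) and 1.27 for *Oas1g* (adjusted p = 0.0989).

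Of the remaining sensors, *Oas1c* had a log2 fold change of 0.82 (adjusted p = 0.107 from edgeR) at no more than 8.43 TMM-scaled CPM. *Oas1b*, whose C57BL/6 allele is known to encode a truncated protein, had overlapping diets (0.39, adjusted p = 0.469). So had *Ifih1*, which encodes the RNA helicase MDA5, at 51.9, 65.1 and 49.3 TMM-scaled CPM on NCD and 57.4, 83.3 and 72.8 on HFD (0.36, adjusted p = 0.272). None of these 3 passed without NCD replicate 1, at 0.75, 0.65 and 0.33 (adjusted p = 0.0998, 0.203 and 0.3 from edgeR).

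**Figure D2:**
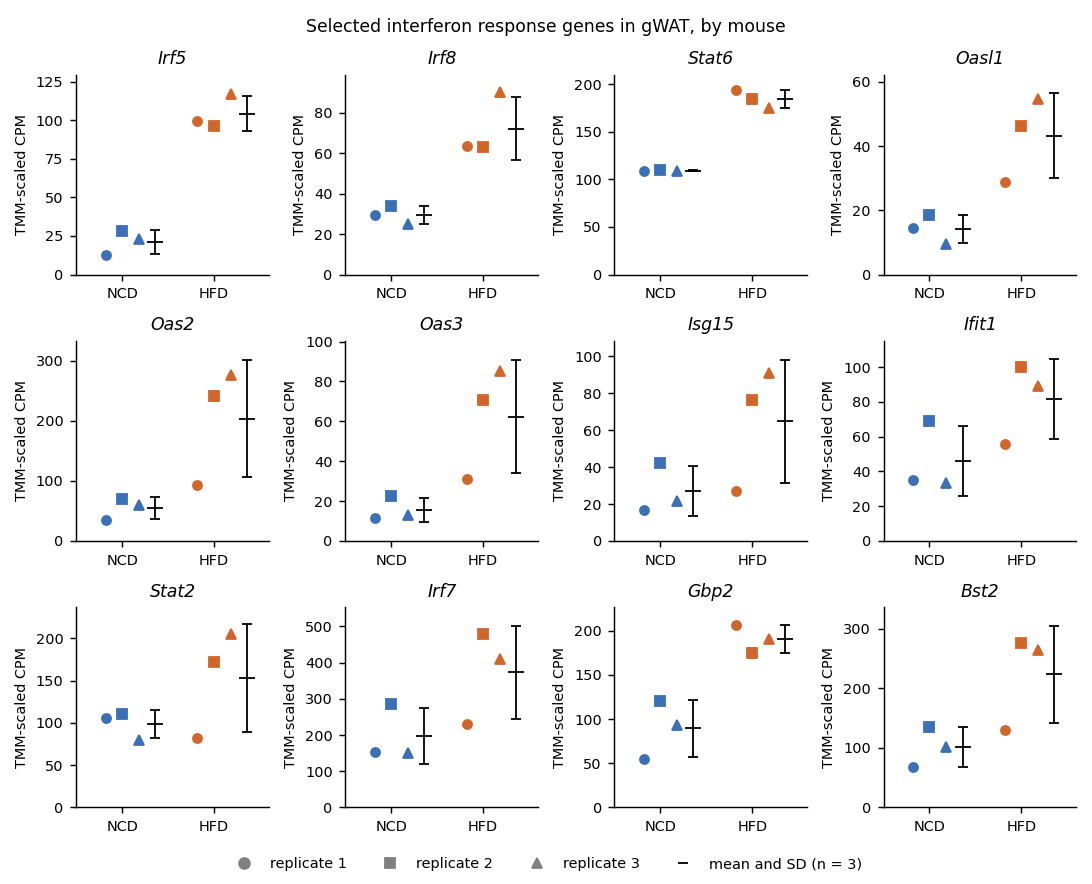
Levels of 12 members in TMM-scaled CPM in each mouse, with the mean and SD (n = 3 mice) beside each diet. Irf5, Irf8, Stat6 and Oasl1 separate the diets, Oas2, Oas3 and Gbp2 separate them without passing edgeR's test in all mice, and Isg15, Ifit1, Stat2, Irf7 and Bst2 overlap.

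The effectors all had a positive log2 fold change in all 6 mice, beside 6865 of all 15241 genes tested. All overlapped between the diets, where 20.5% of all genes lay wholly above on HFD and 18.7% wholly below. Of the 13, edgeR called none in all mice (beside 5.58% higher of all genes) or without NCD replicate 1 (beside 10.7%). In all mice 4 were higher at an unadjusted p under 0.05, beside 2436 of all genes. DESeq2 called 2 and 1 of them, beside 3904 (55.1% of them higher) and 5393 (52% of them higher) of all genes. By limma-voom there were 0 and 0, beside 974 and 2856 of all genes in both directions.

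*Isg15* encodes the ubiquitin-like protein attached to other proteins during the response. It was at 16.8, 42.4 and 21.6 TMM-scaled CPM on NCD and 27.3, 76.2 and 90.7 on HFD. HFD replicate 1 lay below NCD replicate 2, and the log2 fold change was 1.26 (SE 0.540, adjusted p = 0.181 from edgeR). *Ifit1*, which binds foreign RNA ends, was at 35.3, 69.1 and 33.6 on NCD and 56.0, 100 and 89.0 on HFD, with the same overlap of NCD replicate 2 and HFD replicate 1 (0.83, adjusted p = 0.19). The fold changes without NCD replicate 1 were 1.04 for *Isg15* (adjusted p = 0.239) and 0.69 for *Ifit1* (adjusted p = 0.247).

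*Bst2*, which encodes the virion tether tetherin, had the highest level per length of the members with a length, a mean of 128 TMM-scaled FPKM on NCD and 281 on HFD. In TMM-scaled CPM it was at 67.5, 135 and 101 on NCD and 129, 276 and 264 on HFD. HFD replicate 1 again fell within the NCD range (log2 fold change 1.14, SE 0.386, adjusted p = 0.117 from edgeR). *Mx1*, a dynamin-like GTPase whose C57BL/6 allele is known to carry a deletion, had the largest fold change of the effectors, 1.45 (SE 0.523, adjusted p = 0.132), from 16.0, 26.9 and 12.4 on NCD and 21.3, 51.6 and 77.9 on HFD. In the 5 mice without NCD replicate 1 these fold changes were 0.93 for *Bst2* (adjusted p = 0.126) and 1.38 for *Mx1* (adjusted p = 0.163).

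*Ifit2*, *Ifit3*, *Rsad2* and *Usp18* showed smaller differences. The log2 fold change was 0.77 for *Ifit2* (adjusted p = 0.12 from edgeR) and 0.82 for *Rsad2* (adjusted p = 0.184), which encodes viperin. *Ifit3* was at 52.0, 184 and 100 TMM-scaled CPM on NCD and 104, 179 and 147 on HFD, so its log2 fold change of 0.35 dropped to 0.03 without NCD replicate 1, and 31.7% of its 100-base exon windows occur in *Ifit3b* as well. *Usp18*, which encodes the protease that removes ISG15 and silences the receptor, was at 58.2, 43.1 and 21.0 on NCD and 24.1, 52.5 and 51.5 on HFD, with no separation (0.07, adjusted p = 0.933).

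Of the 13 GTPases, *Gbp2*, *Gbp4* and *Gbp9* rose by edgeR without NCD replicate 1 (beside 10.7% of all genes tested). None passed in all 6 mice by edgeR (beside 5.58%) or limma-voom. DESeq2 called 3 in all mice, beside 3904 of all genes (55.1% of them higher). At an unadjusted p under 0.05 there were 3 higher, beside 2436 of all 15241 genes tested. The guanylate-binding proteins coat and break the membranes of intracellular pathogens. *Gbp2*, which had the highest level per length of the GTPases (35.6 TMM-scaled FPKM on NCD and 75.8 on HFD), was at 55.2, 120 and 93.3 TMM-scaled CPM on NCD and 206, 175 and 191 on HFD. Unlike the Oas genes and the effectors, it was highest in HFD replicate 1. Its log2 fold change was 1.09 (adjusted p = 0.0766 from edgeR) in all mice and 0.85 (adjusted p = 0.0213) without NCD replicate 1.

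*Gbp4* was at 23.3, 37.8 and 45.3 TMM-scaled CPM on NCD and 60.7, 63.0 and 62.4 on HFD, with 0.81 (adjusted p = 0.0991 from edgeR) and 0.59 (adjusted p = 0.0268) without NCD replicate 1. *Gbp9* was at 24.0, 41.1 and 34.2 on NCD and 53.4, 66.3 and 66.3 on HFD, with 0.91 (adjusted p = 0.0657) and 0.74 (adjusted p = 0.0284). Both separated the diets, and for *Gbp4* the HFD mice lay closer together than the NCD mice. NCD replicate 1 was the lowest NCD mouse for 10 of the 11 Gbp genes, beside 62.7% of the members tested and 45.2% of all genes tested. The other Gbp genes overlapped between the diets except *Gbp8*, and *Gbp6* and *Gbp10* share 82.9% and 70% of their 100-base exon windows with *Gm43302*, so their counts are uncertain. *Irgm1*, an immunity GTPase of autophagy, had a log2 fold change of 0.51 (adjusted p = 0.251).

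**Figure D3:**
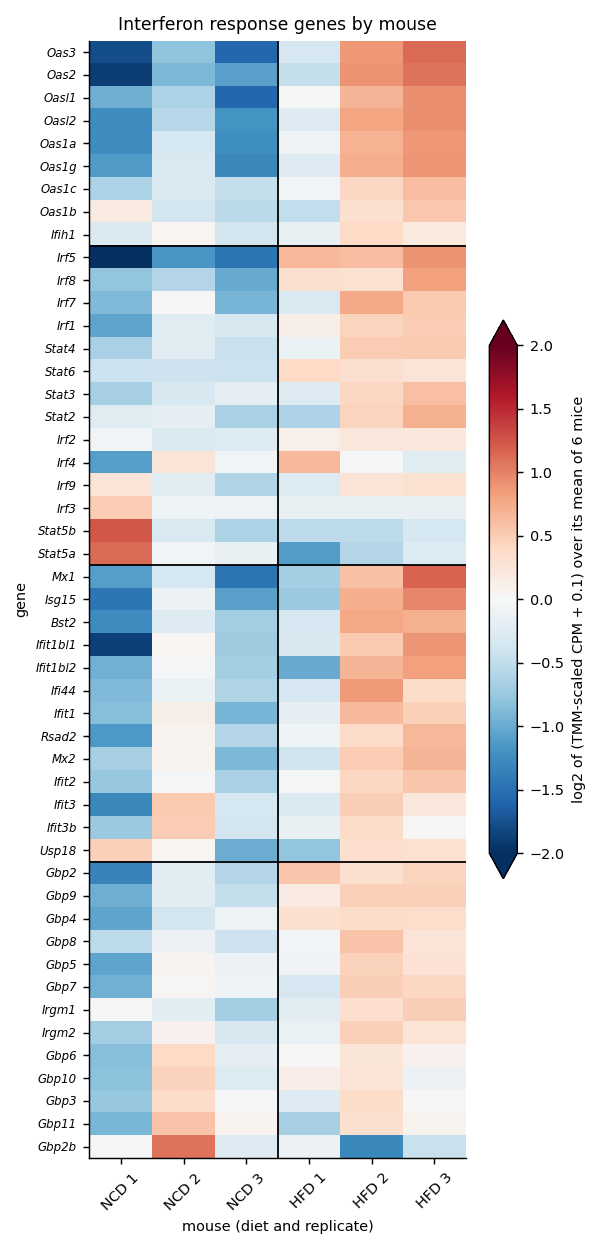
Level of 49 of the 51 members tested in each mouse, as log2 of (TMM-scaled CPM + 0.1) over the gene's mean of 6 mice, by role from sensors at the top to GTPases at the bottom; colours are capped at ± 2. HFD replicate 1 is the lowest of the HFD mice for all 9 sensors and all 13 effectors.

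The HFD mice did not share a common level. HFD replicate 1 was the lowest of its diet for 42 of the 51 members (82.4%, beside 36.8% of all genes tested), among them all 9 sensors and all 13 effectors, 10 of 16 transcription factors and 10 of 13 GTPases. Over the sensors its level was below the mean of HFD replicates 2 and 3 by a median of -0.921 on the log2 scale, and over the effectors by -0.991. The 8 tested Oas genes summed to 186, 305 and 204 TMM-scaled CPM on NCD and to 385, 804 and 914 on HFD. For the effectors the sums were 362, 738 and 435 on NCD and 553, 1039 and 1016 on HFD.

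Lists of markers of other cell types were summed in the same way. The neutrophil list (*S100a8*, *S100a9*, *Ly6g* and *Csf3r*) summed to 4.20, 9.35 and 6.36 TMM-scaled CPM on NCD and 20.1, 142 and 386 on HFD, with HFD replicate 1 lowest, and *Ly6g* at 0 in 4 of the mice. The plasmacytoid dendritic cell list of 5 genes was at 89.9, 108 and 120 on NCD and 133, 123 and 135 on HFD. Most of it was *Tcf4*, while *Siglech*, a defining marker, was at or below 2.5 in every mouse, and both overlapped between the diets. *Il3ra* was at 5.82, 9.17 and 8.84 on NCD and 25.5, 24.1 and 29.2 on HFD (log2 fold change 1.72, adjusted p = 0.0219 from edgeR). *Ccr9* also separated the diets, at no more than 1.31 (1.49, adjusted p = 0.183), and *Ly6d* overlapped with a negative fold change (-1.23, adjusted p = 0.386). The T cell list was at 6.57 to 13.1 on NCD and 5.88 to 12.3 on HFD, and the natural killer cell list at 7.58 to 10.5 and 12.6 to 16.2. The part of these cells in the members' levels was not tested. Fitted without NCD replicate 1 and HFD replicate 1 together, 25 members rose (49%, beside 13.7% of all genes tested) and 1 fell (1.96%, beside 11.4%), all 8 tested Oas genes and *Isg15*, *Bst2* and *Mx1* among the rises. HFD replicate 1 was the lowest of its diet for most members, so leaving it out raises their fold changes by construction. The number of calls need not rise with them, and the count of 25 gives no separate evidence. Leaving out HFD replicate 1 alone gave 0 rises by edgeR, where 2 of all 15713 genes tested passed. The members' median log2 fold change in that fit was 0.892, beside -0.082 over all genes tested. No other tool was run on those libraries.

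**Figure D4:**
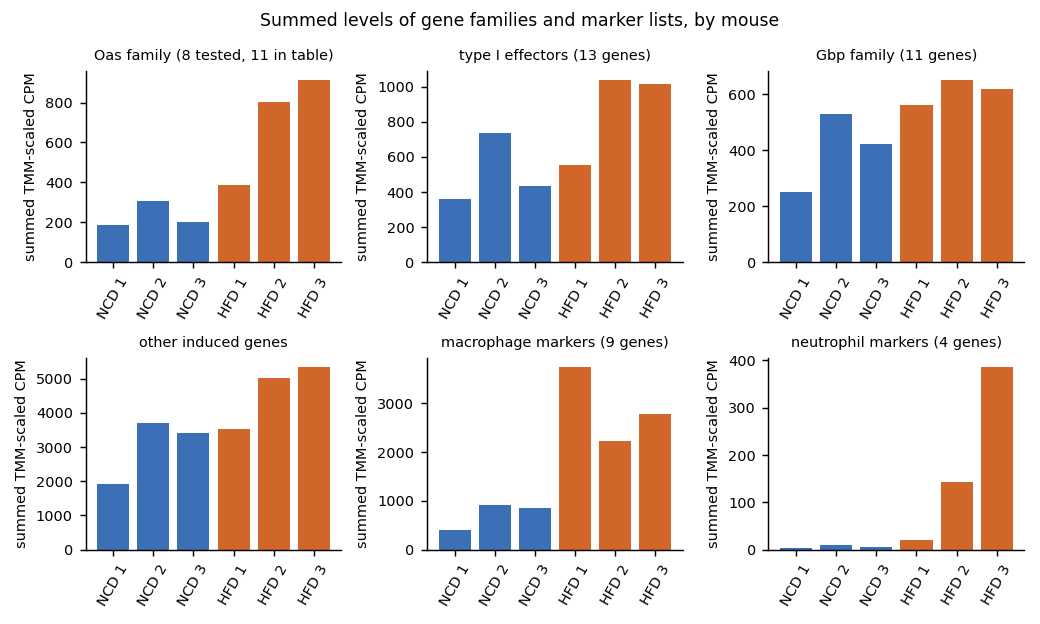
Summed TMM-scaled CPM in each mouse of the Oas family, the effectors, the Gbp family, 38 other interferon-induced genes and the macrophage and neutrophil marker lists, NCD in blue and HFD in orange. HFD replicate 1 is the lowest HFD mouse for the Oas genes (385) and the highest for the macrophage markers (3746).

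The other genes of the pathway were described from lists of ligands, receptors, sensors, inhibitors and further induced genes. Of 10 ligand genes, 9 were listed at or near 0, *Ifnb1* among them at no more than 0.122 TMM-scaled CPM, and only *Ifng* had enough counts to be tested, at 0.1 to 0.396 on NCD and 0.156 to 0.479 on HFD (log2 fold change 0.39, adjusted p = 0.73 from edgeR). It was 0.98 without NCD replicate 1 (adjusted p = 0.384).

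Of 9 receptor and kinase genes, 2 rose in all mice (beside 5.58% of all genes tested) and 5 without NCD replicate 1 (beside 10.7%) by edgeR. DESeq2 called 4 and 7 of them and limma-voom 2 and 5. *Il10rb*, the chain that the interleukin-10 and lambda interferon receptors share, was at 35.5, 49.0 and 58.8 TMM-scaled CPM on NCD and 134, 122 and 160 on HFD (1.54, adjusted p = 0.024 from edgeR). *Ifngr2*, the signalling chain of the interferon-gamma receptor, was at 24.0, 38.0 and 38.3 on NCD and 75.7, 72.0 and 88.7 on HFD (1.24, adjusted p = 0.0332). With NCD replicate 1 left out they were 1.38 (adjusted p = 0.00903) and 1.063 (adjusted p = 0.00898). *Ifnar1*, *Ifnar2* and *Tyk2* were added by edgeR without NCD replicate 1, at 0.75, 0.74 and 0.74.

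Of 14 further sensor and adaptor genes, 3 rose in all mice by edgeR (beside 5.58% of all genes tested), where DESeq2 called 8 higher and 1 lower and limma-voom 2 higher. They were *Cgas* and *Sting1*, the cytosolic DNA sensor and its adaptor, and *Tlr7*, an endosomal RNA receptor. *Cgas* was at 3.20, 3.50 and 3.74 TMM-scaled CPM on NCD and 8.11, 10.4 and 15.1 on HFD (log2 fold change 1.69, adjusted p = 0.0289 from edgeR). *Sting1* was at 18.1, 19.2 and 21.1 on NCD and 31.5, 50 and 70.6 on HFD (1.38, adjusted p = 0.0493). *Tlr7* was at 5.88, 14.9 and 10.7 on NCD and 46.2, 33.4 and 42.2 on HFD (1.95, adjusted p = 0.0346). Within the NCD mice *Cgas* and *Sting1* varied little, and in all 3 genes the diets did not overlap. Leaving out NCD replicate 1, the log2 fold changes were 1.65, 1.35 and 1.68 (adjusted p = 0.0213, 0.0463 and 0.00903). In that fit 6 of the 14 rose (beside 10.7%), with *Ikbke*, *Tlr3* and *Ticam1* added, and *Mavs*, the adaptor of the RNA helicases, fell by 0.45 on the log2 scale (adjusted p = 0.0398). DESeq2 then called 9 higher and 1 lower, and limma-voom 4 and 1.

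Of 6 inhibitors, 1 rose by edgeR in all mice (beside 5.58% of all genes tested) and without NCD replicate 1 (beside 10.7%). It was *Ptpn6*, the haematopoietic phosphatase SHP-1 (log2 fold change 1.85, adjusted p = 0.024, and 2.06, adjusted p = 0.00997). DESeq2 called 2 and 3 of them and limma-voom 1 and 1. *Socs3*, a feedback inhibitor of cytokine receptors, was at 4.81, 9.70 and 8.99 TMM-scaled CPM on NCD and 9.50, 66.8 and 125 on HFD, where HFD replicate 1 lay within the NCD range (3.10, adjusted p = 0.0838, and 2.87, adjusted p = 0.102, without NCD replicate 1).

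Of 38 further induced genes, 4 rose in all mice by edgeR (beside 5.58% of all genes tested), while DESeq2 called 14 and limma-voom 4. The 4 were *Trim25* (1.11, adjusted p = 0.0219), *Samhd1* (1.56, adjusted p = 0.0231), *Tor3a* (1.27, adjusted p = 0.036) and *Ifi207* (1.80, adjusted p = 0.0363). Their log2 fold changes without NCD replicate 1 ran from 1.10 (*Tor3a*, adjusted p = 0.0152) to 1.56 (*Ifi207*, adjusted p = 0.013), and all 4 passed. *Parp14* and *Sp100* were added without NCD replicate 1, where *Ifi27* fell by 1.24 on the log2 scale (adjusted p = 0.00833). DESeq2 then called 15 higher and 3 lower, and limma-voom 6 and 1. The median log2 fold change of the 38 was 0.776, close to that of the members.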

How the data were processed

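Poly(A) RNA libraries of gWAT from 6 mice were sequenced on a NovaSeq. The sample labels name a stranded TruSeq mRNA kit and the methods a TruSeq mRNA kit. The authors deposited raw read counts per NCBI gene identifier, 1 column per mouse and not normalized. The column of the third HFD replicate carries the number 4. The submitters' processing notes name bcl2fastq 2.20.0, Trimmomatic, HISAT2 2.1.0, StringTie 1.3.4d and DESeq2, and the builds mm10 and GRCm38. The sources used here do not give their roles, the annotation or the strand setting. No column lacked a sample (0 columns).

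Of 19790 identifiers, 19742 were paired with a symbol through RefSeq (GRCm38.p6), and the other 48 held 0.629% of the counts. Genes were kept by filterByExpr of edgeR 4.0.16 (R 4.3.3) with a count of at least 10 and a total of at least 15. TMM scaling preceded edgeR's quasi-likelihood test, whose p-values were adjusted by the Benjamini-Hochberg procedure across every gene kept and called under 0.05. The common biological coefficient of variation was 0.424, and 0.288 without NCD replicate 1. Replicates were separate mice, and no pair of libraries was a duplicate. Same-numbered mice did not deviate together (correlations -0.0565, -0.0457 and 0.00965), so the numbers were not used as pairs. FPKM used exon lengths of GENCODE vM21, found for 53 members, all but Mx1.

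The members and lists were chosen with earlier results of these data known. Values in every mouse are given for members past the threshold in either fit, for Stat2, Irf7, Irf9, Isg15 and Ifit1, and for the highest member per length in each role, and other members were named after their values had been seen. Values of 2 members are not reported here, though all 51 tested enter the counts and medians. The alternatives were no filter, median-of-ratios (RLE), upper-quartile and total-count scaling, removal of the seminal vesicle genes, DESeq2 1.42.0, limma-voom (limma 3.58.1), the replicate block and each mouse left out in turn. The procedure was tested on simulated data. Plots were made in Python 3.11.15 with matplotlib 3.10.9.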

Additional observations from a re-analysis of the deposited data

How the results depend on the processing

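Of all genes, 1139 passed in all 6 mice. DESeq2 called 3904 and the replicate block 12, and with a mouse left out the count ran from 2 (without NCD replicate 2, NCD replicate 3 or HFD replicate 1) to 3234 (without NCD replicate 1). Calls were higher on HFD in 74.6% of cases, 55.1% with DESeq2, 51.5% without NCD replicate 1 and 41.7% with the replicate block. Of the members, 4 were higher. DESeq2 called 17, limma-voom 3 (without Oasl1), the replicate block 0, and leaving out a mouse 0 to 9, with 0 for every mouse other than NCD replicate 1. Lower members numbered 0, and 1 with total counts alone, 1 with DESeq2 and 0 to 1 with a mouse left out. No library correlated best with the library of its own number (0 of 6), so the replicate block is given as a count only. Without NCD replicate 1, 9 were higher, 16 with DESeq2, and from 1 (without NCD replicate 2 or 3 as well) through 3 and 4 (without HFD replicate 3 or 2) to 25 (without HFD replicate 1), while the lower count was 1 and ran from 0 to 1.

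The members' median log2 fold change of 0.754 became 1.212 with total counts alone, where the median of all genes moved to 0.445 from -0.078 and the members lay 0.767 above it, against 0.833. The fold change of Irf3 turned to 0.322 with total counts alone. With a mouse left out, that of Stat5b ran from -1.111 to 0.015 (without NCD replicate 1). That of Usp18 ran from -0.227 (without NCD replicate 3) to 0.434, with -0.087 and -0.072 without HFD replicates 2 and 3. The cause was not tested, apart from the fewer samples of each such fit. Where an arm kept 1 mouse, that mouse was assumed to vary like the other diet. With 3 mice a diet, a gene that misses the threshold is not shown to be unchanged.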

Other observations

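Among all tested genes with a RefSeq promoter entry, those with an ISRE match were called higher on HFD in 35 of 469 cases (7.46%), against 637 of 11493 without a match (5.54%), and their median log2 fold changes were 0.152 and -0.09. Without NCD replicate 1 the counts were 65 of 469 (13.9%) and 1253 of 11482 (10.9%), with median log2 fold changes of 0.224 and 0. For GAS matches the shares were 6% of 1000 genes and 5.58% of 10962. Among the members with an entry that were tested, the 23 with an ISRE match and the 15 without had median log2 fold changes of 0.771 and 0.768. Called higher by edgeR were 0 of 23 and 4 of 15 (26.7%), with 8 and 9 at an unadjusted p under 0.05, 7 and 6 by DESeq2 and 0 and 3 by limma-voom. Without NCD replicate 1 edgeR called 2 of 23 (8.7%) and 5 of 15 (33.3%). These shares are descriptions with no test.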
